A study of Homo sapiens with 16 samples.

Results

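The genes described here encode the enzymes that build DNA at the replication fork: the subunits of DNA polymerase alpha and its primase (POLA1, POLA2, PRIM1 and PRIM2), subunits of DNA polymerases delta (POLD1 and POLD3) and epsilon (POLE and POLE2), the sliding clamp PCNA and the flap endonuclease FEN1. The 10 members were chosen with earlier results of these data known. Their probe sets were taken by name, as every probe set of the array whose only annotated gene symbol is one of the members. That gave 14 probe sets of 54675, which stand for 10 of 19775 named genes. POLA2 had 3 probe sets, POLD3 and FEN1 had 2 each, and the other members had 1. Another 4 probe sets that name PRIM2 together with a related locus were left out.

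RNA came from SAOS cells, an established human osteosarcoma line without functional RB, the protein that restrains the E2F transcription factors. There were 4 groups of 4 arrays: cells transiently transfected with human RB1 and mouse SMYD2 (RB plus SMYD2), with human RB1 alone (RB), with mouse SMYD2 alone (SMYD2), and cells with no transfection (control). SMYD2 is a lysine methyltransferase, and the series title asks what its overexpression does to ectopic RB. No group with an empty vector was analysed here, so in every difference from control the construct and the transfection itself cannot be told apart. The arrays of each group are numbered 1, 3, 4 and 5, and the labels do not state whether each array had a culture of its own, so the p-values rest on the spread between arrays, which may be purely technical. In RNA from whole cultures, fewer cells in S phase and less transcript per cell cannot be told apart.

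All levels are log2 signals made by the submitters with RMA, so a difference of 1 is a doubling, and a gene with several probe sets is represented by its brightest one unless stated otherwise. Differences are the first named group minus the second, with standard errors (SE) from a limma fit over all genes. A gene was called when its p-value, adjusted over all 19775 genes within the comparison, was under 0.05. The array medians lay between 5.59 and 5.64. The brighter of the 2 RB1 probe sets read 8.67 ± 0.90 (SD, n = 4) with RB plus SMYD2, 7.70 ± 0.34 with RB, 6.85 ± 0.17 with SMYD2 and 6.48 ± 0.32 in control, and RB against control differed by 1.22 ± 0.31 (SE, limma adjusted p = 0.0414). The dimmer one averaged 3.44 to 3.51 in every group. The brightest SMYD2 probe set averaged 10.05 to 10.28 in the 4 groups, and human probes need not read the mouse construct. Of 8 osteoblast markers measured, 7 lay between percentiles 85.0 and 99.3 of the gene means (RUNX2, SP7, ALPL, COL1A1, COL1A2, SPARC and IBSP), and SPP1 lay at percentile 34.9. Of 6 markers of other cells, 5 lay between percentiles 4.50 and 42.9, while EPCAM lay at percentile 78.2, between 9.05 and 9.62 on all arrays.

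At each fork, polymerase alpha and primase lay down a short RNA and DNA primer. A clamp loader then places PCNA, the ring that holds the polymerases on DNA. Polymerase epsilon extends the leading strand and polymerase delta the lagging strand, and FEN1 trims the flaps left where lagging-strand pieces meet. Genes of these proteins are known as E2F targets that are transcribed most strongly around the entry into S phase.

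Transfected RB went with lower signals of nearly the whole group. Against control, 8 of the 10 members fell and none rose, by 0.39 to 0.59 on the log2 scale, which is 1.31-fold to 1.51-fold. The other two, POLE2 and PRIM2, differed by -0.52 ± 0.15 and -0.29 ± 0.13 (SE) and did not pass (limma adjusted p = 0.0880 and 0.331). Of all genes, 1.71% were called lower in this comparison. The median difference of the members was -0.49, against 0.01 over all genes. In 9 of 10 members the RB arrays all lay below the control arrays, as they did in 5.2% of all genes.

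**Figure D1:**
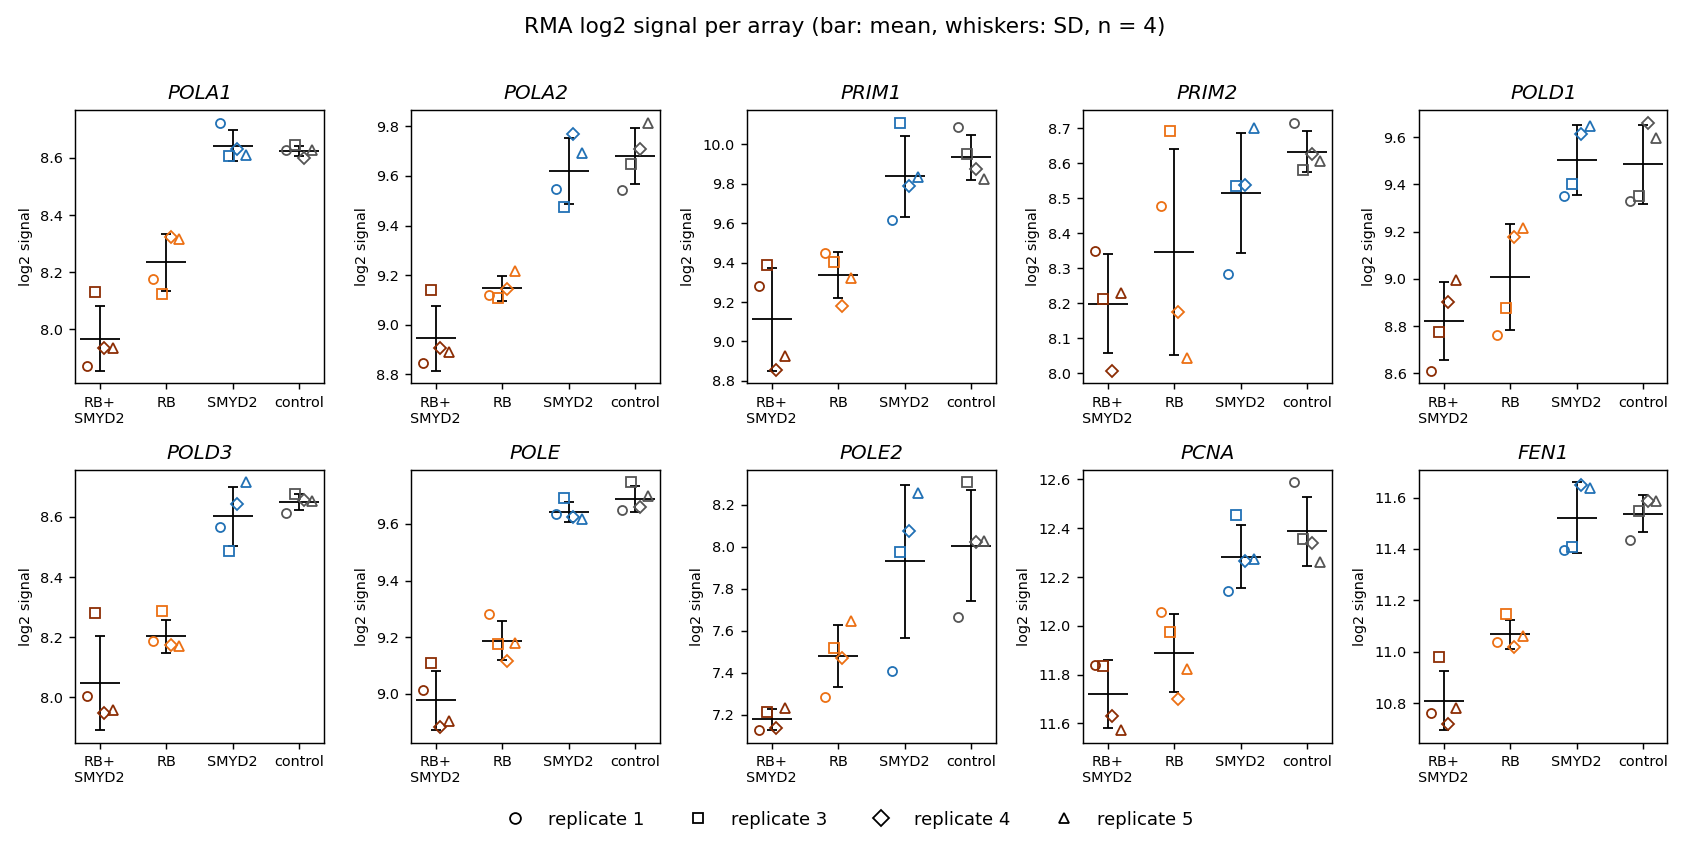
RMA log2 signal (vertical axes, each with its own range) of the 10 members on each of 16 arrays, with the brightest probe set of each gene. Symbols mark the replicate number, bars the mean and whiskers the SD of 4 arrays; the RB plus SMYD2 and RB arrays lie below the SMYD2 and control arrays in every panel except PRIM2, where the groups mix, and POLE2, where SMYD2 array 1 lies among the RB arrays.

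The primase and polymerase alpha genes bracketed the range of the differences. PRIM1, the catalytic subunit of primase, read 9.45, 9.40, 9.18 and 9.32 on RB arrays 1, 3, 4 and 5, against 10.08, 9.95, 9.88 and 9.82 on the control arrays. Every RB array was below every control array, and PRIM1 fell by 0.59 ± 0.12 (limma adjusted p = 0.0133), although without RB array 4 it missed the threshold (limma adjusted p = 0.0633). POLA1, the catalytic subunit of polymerase alpha, read 8.17, 8.12, 8.32 and 8.31 with RB, against 8.63, 8.64, 8.60 and 8.63 in control. Its control arrays lay very close together, and it fell by 0.39 ± 0.08 (limma adjusted p = 0.00990). POLA2, the regulatory subunit of polymerase alpha, averaged 9.15 ± 0.05 with RB and 9.68 ± 0.11 in control (SD, n = 4 each) and fell by 0.53 ± 0.09 (limma adjusted p = 0.00311).

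PRIM2, the large subunit of primase, behaved less evenly. It read 8.48, 8.69, 8.17 and 8.04 on RB arrays 1, 3, 4 and 5, against 8.72, 8.58, 8.63 and 8.61 in control. RB array 3 was above 3 of the control arrays while RB arrays 4 and 5 were far below all of them, so the groups overlapped. The SD of PRIM2 was 0.29 with RB and 0.06 in control. Whether PRIM2 differs from the other members in its response was not tested.

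Among the genes of polymerases delta and epsilon, POLE had the smallest adjusted p. POLE, the catalytic subunit of polymerase epsilon, read 9.28, 9.17, 9.12 and 9.18 with RB, against 9.65, 9.75, 9.66 and 9.70 in control. The groups were well apart, and POLE fell by 0.50 ± 0.07 (1.42-fold, limma adjusted p = 0.00103). POLD3, a subunit of polymerase delta that binds PCNA, averaged 8.20 ± 0.05 with RB and 8.65 ± 0.03 in control (SD, n = 4 each) and fell by 0.45 ± 0.08 (limma adjusted p = 0.00722).

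POLD1 and POLE2 followed their replicate numbers as well as their groups. POLD1, the catalytic subunit of polymerase delta, read 8.76, 8.87, 9.18 and 9.21 on RB arrays 1, 3, 4 and 5, against 9.33, 9.35, 9.66 and 9.59 in control. In all 4 groups arrays 1 and 3 were below arrays 4 and 5. For PRIM1 and PCNA arrays 1 and 3 were instead above arrays 4 and 5, in every group except SMYD2. POLD1 fell by 0.48 ± 0.12 (limma adjusted p = 0.0432), a call that was lost with 9 of the 16 arrays left out one at a time (the highest limma adjusted p was 0.164, on leaving out control array 4). POLE2, the second subunit of polymerase epsilon, read 7.28, 7.52, 7.47 and 7.64 with RB, against 7.66, 8.31, 8.02 and 8.03 in control. Array 1 was its lowest in every group, and the lowest control array stood only just above the highest RB array. With the replicate number as a block, the SE of POLE2 was 0.11 in place of 0.15 and it passed (limma adjusted p = 0.00732), which made 9 members lower, against 3.47% of all genes in that fit. POLE2 also passed without control array 1 or without SMYD2 array 1 (limma adjusted p = 0.0365 and 0.0127).

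The clamp and the flap nuclease fell too. PCNA read 12.06, 11.98, 11.70 and 11.82 with RB, against 12.59, 12.36, 12.34 and 12.26 in control. The 2 groups did not overlap and the difference was -0.50 ± 0.10 (1.41-fold, limma adjusted p = 0.00797). FEN1 read 11.04, 11.15, 11.02 and 11.06 with RB, against 11.43, 11.55, 11.59 and 11.58 in control, again with no overlap. It fell by 0.47 ± 0.08 (1.39-fold, limma adjusted p = 0.00288).

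The promoters of the members were searched for motifs of the factors linked to such genes, since 8 of them fell together. RefSeq sequences (GRCh38.p14) of 250 bases before to 50 after a gene start were at hand for all 10 members, 12 starts in all, since PRIM2, POLD1 and PCNA have more than 1. An E2F element, spelled TTTCCCGC, TTTGGCGC, TTTCGCGC or TTTGCCGC on either strand, was present in 5 of the 12 promoters, each of another member, against 3.31% of 35116 promoters of that length. The stretch around each is given below, read along the gene's strand, with the E2F letters in capitals. These are POLA1 at chrX:24693755-24693814 on the plus strand, POLA2 at chr11:65261883-65261942 on the plus strand, POLE at chr12:132687327-132687386 on the minus strand, POLE2 at chr14:49688186-49688245 on the minus strand and PCNA at chr20:5126648-5126707 on the minus strand.
POLA1: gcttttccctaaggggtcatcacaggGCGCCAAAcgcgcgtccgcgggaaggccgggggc
POLA2: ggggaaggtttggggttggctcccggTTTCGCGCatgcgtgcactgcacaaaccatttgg
POLE: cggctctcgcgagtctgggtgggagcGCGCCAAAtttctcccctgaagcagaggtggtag
POLE2: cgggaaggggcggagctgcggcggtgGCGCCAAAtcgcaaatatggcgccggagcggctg
PCNA: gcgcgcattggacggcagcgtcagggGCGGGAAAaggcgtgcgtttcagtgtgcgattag

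POLA1, POLE and POLE2 carry the same letters, GCGCCAAA, which is TTTGGCGC on the other strand. Counted from the gene start, the first capital lies at -137 in POLA1, -53 in POLA2, -18 in POLE, -5 in POLE2 and -59 in PCNA. The CCAAT box, spelled CCAAT on either strand, was present in 5 of the 12 promoters, those of POLA1, PRIM1, POLE and both of PCNA, against 34.6% of all promoters, and it overlapped no E2F element. The 2 CCAAT matches of POLE overlap each other. The CHR element, spelled TTTGAA, was in none of the members' promoters, against 15.2% of all. The 5 members with an E2F spelling differed between RB and control by -0.53 to -0.39 and the 5 without by -0.59 to -0.29, so the ranges overlap. A match is a string of letters and was not tested as a binding site.

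With SMYD2 present on both sides, RB went with the same direction of change. In RB plus SMYD2 against SMYD2, 9 of the 10 members fell and none rose, by 0.56 to 0.75, and the median of all 10 was -0.68, against 0.01 over all genes. Of all genes, 4.25% were called lower. The same 9 members had no overlap between the groups, which held for 6.61% of all genes. FEN1 read 10.76, 10.98, 10.72 and 10.78 with RB plus SMYD2, against 11.40, 11.41, 11.65 and 11.64 with SMYD2, and fell by 0.71 ± 0.08 (1.64-fold, limma adjusted p = 1.95e-05). POLE read 9.01, 9.11, 8.88 and 8.90 with both constructs, against 9.63, 9.69, 9.62 and 9.62 with SMYD2. Its arrays lay in 2 tight clusters, and it fell by 0.67 ± 0.07 (1.59-fold, limma adjusted p = 1.74e-05).

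POLE2 had the largest difference here, with the widest interval. It read 7.13, 7.21, 7.14 and 7.23 with RB plus SMYD2, against 7.41, 7.98, 8.08 and 8.26 with SMYD2, and fell by 0.75 ± 0.15 (95% interval -1.08 to -0.43, limma adjusted p = 0.00508). SMYD2 array 1 was well below the other SMYD2 arrays. That array also had the highest ratio of 3′ to 5′ ACTB probe signal, a measure of RNA integrity, a log2 ratio of 3.53, where all other arrays had 0.54 to 2.46, and its part in the result was not tested. Without it POLE2 differed by -0.93, and the count of members called lower was 9 without any one of the 16 arrays. PRIM2 differed by -0.32 ± 0.13 and did not pass (limma adjusted p = 0.164).

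RB plus SMYD2 against control shares its arrays with the comparisons above, and its median over the members was -0.69. All 10 members fell, by 0.43 to 0.83, where 4.2% of all genes were called lower, and none of the 10 overlapped between the groups, as in 7.79% of all genes. PRIM1 and POLE2 were both 1.77-fold lower, at -0.82 ± 0.12 and -0.83 ± 0.15. PCNA read 11.84, 11.84, 11.63 and 11.57 with both constructs, against 12.59, 12.36, 12.34 and 12.26 in control, and fell by 0.67 ± 0.10 (1.59-fold, limma adjusted p = 0.000229). PRIM2 passed here at -0.43 ± 0.13 (limma adjusted p = 0.0475), reading 8.35, 8.21, 8.01 and 8.23 with both constructs, but the call was lost with 12 of the 16 arrays left out one at a time (at most 0.168, on leaving out RB plus SMYD2 array 4).

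**Figure D2:**
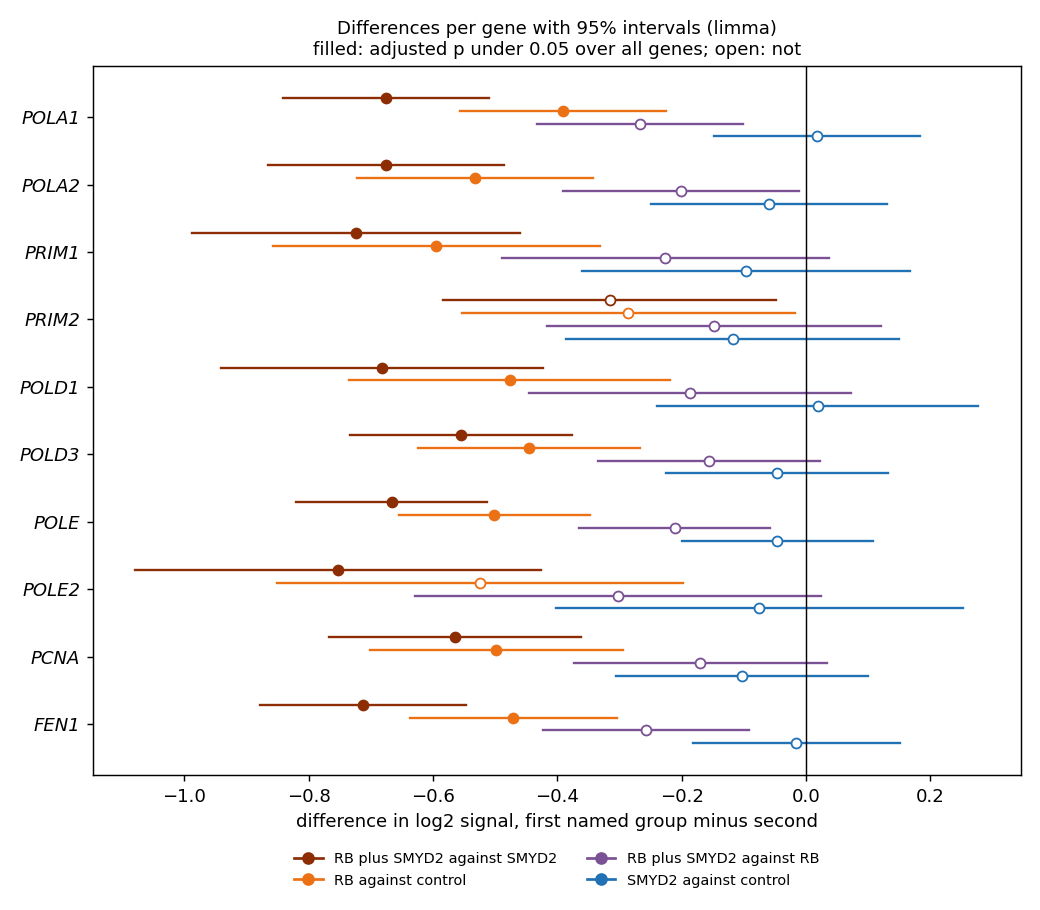
Difference in log2 signal of each member (horizontal axis, first named group minus second) in 4 comparisons, with 95% intervals of the limma fit; filled points were called over all genes. The intervals of both comparisons that add RB lie below 0 for every member, and no point of the comparisons that add SMYD2 is filled.

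The question in the series title turns on RB plus SMYD2 against RB. All 10 members had a difference below 0, against 48.1% of all genes, from -0.30 for POLE2 to -0.15 for PRIM2. Their median was -0.21 against 0.005 over all genes, but no member passed. With any one array left out all 10 stayed below 0, but some values moved by over 1.5 times. PRIM2 was at -0.03 without RB array 3, -0.08 without RB plus SMYD2 array 4 and -0.25 without RB array 5. PRIM1 was at -0.14 without RB plus SMYD2 array 4, and POLD1 was at -0.12 without RB plus SMYD2 array 1 or RB array 5. Limma called 0 of the 10 members and 0% of all genes lower, with and without the replicate block. At an unadjusted p under 0.05, 4 members were lower (POLA1, POLA2, POLE and FEN1), against 1.97% of all genes, and the smallest adjusted p among the members was 0.745, for POLA1. With the replicate block 8 members were lower at an unadjusted p under 0.05, against 3.34% of all genes in that fit, and the smallest adjusted p was 0.409. In 3 members, POLE, POLE2 and FEN1, the arrays with both constructs all lay below the RB arrays, as in 1.98% of all genes.

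FEN1 read 10.76, 10.98, 10.72 and 10.78 with RB plus SMYD2, against 11.04, 11.15, 11.02 and 11.06 with RB, a difference of -0.26 ± 0.08 (95% interval -0.42 to -0.09). The highest array with both constructs stood just below the lowest RB array. POLE read 9.01, 9.11, 8.88 and 8.90 with both constructs, against 9.28, 9.17, 9.12 and 9.18 with RB (-0.21 ± 0.07). POLE2 read 7.13, 7.21, 7.14 and 7.23 with both constructs, against 7.28, 7.52, 7.47 and 7.64 with RB (-0.30 ± 0.15). POLA1 read 7.87, 8.13, 7.93 and 7.94 with both constructs, against 8.17, 8.12, 8.32 and 8.31 with RB. Its array 3 with both constructs was level with RB array 3, and the groups overlapped by that array alone (-0.27 ± 0.08).

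Of the 40 same-numbered pairs over the members, 37 were lower with both constructs. The 3 exceptions were POLA1 and POLA2 in pair 3, at 0.01 and 0.03, and PRIM2 in pair 5, at 0.19. Pair 3 had the smallest median over the members, -0.08, and the other pairs had medians between -0.28 and -0.20. The RB1 transcript itself was higher with both constructs, at 8.67 against 7.70 (0.97 ± 0.31), the largest rise of all genes. In pairs 1, 3, 4 and 5 it was higher by 0.50, 0.47, 1.14 and 1.75. The members' medians in these pairs were -0.20, -0.08, -0.26 and -0.28. RB1 was not called (limma adjusted p = 0.880), and its part in the members' differences was not tested.

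**Figure D3:**
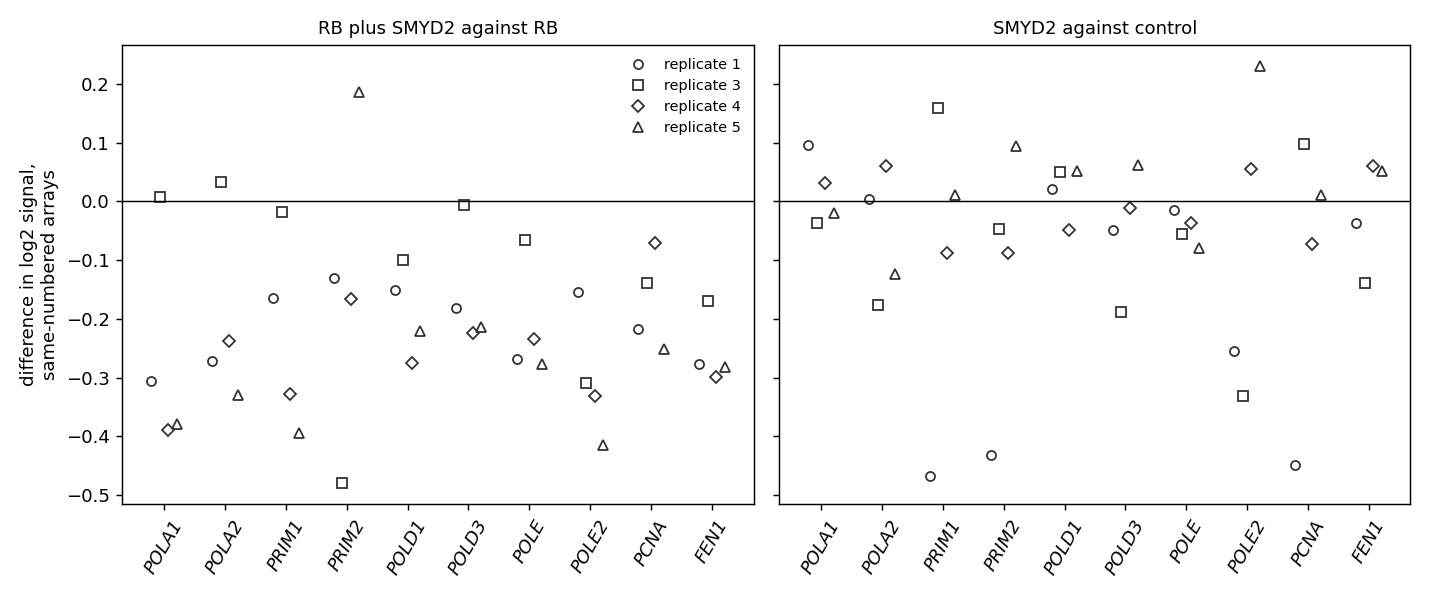
Differences in log2 signal between same-numbered arrays (vertical axis) for each member, in RB plus SMYD2 against RB (left) and SMYD2 against control (right); symbols mark the replicate number. On the left 37 of 40 points lie below 0, and on the right 23 of 40. Points with the same symbol come from the same arrays and are not independent.

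With SMYD2 and no ectopic RB the members read near control. The brightest SMYD2 probe set averaged 10.28 with SMYD2 and 10.16 in control, so expression of the mouse construct was not shown here. The members' differences in SMYD2 against control ran from -0.12 for PRIM2 to 0.02 for POLD1, with a median of -0.05 against 0.01 over all genes. Of the 10, 8 were below 0, against 45.3% of all genes. Limma called 0 members and 0% of all genes lower. At an unadjusted p under 0.05 there were 0 members, against 0.946% of all genes lower. The intervals are wide compared with these values: that of POLE, the narrowest, ran from -0.20 to 0.11 and that of POLE2 from -0.40 to 0.25. In pair 1, PRIM1, PCNA, PRIM2 and POLE2 were lower with SMYD2 by 0.47, 0.45, 0.43 and 0.25. That pair holds the 2 arrays with the highest 3′ to 5′ ACTB ratios, 3.53 for SMYD2 array 1 and 2.46 for control array 1, whose part in this was not tested. The GAPDH log2 ratios of these arrays were 0.16 and 0.06, where all arrays had -0.01 to 0.16. In pairs 3, 4 and 5 POLE2 differed by -0.33, 0.06 and 0.23.

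The interaction is the difference of RB plus SMYD2 from SMYD2 minus that of RB from control. Its second term sets transfected against untransfected cells and its first does not, so an effect of SMYD2 on the RB difference and an effect of transfection cannot be told apart in it. The RB1 transcript also differed by 1.82 ± 0.31 in the first term and by 1.22 ± 0.31 in the second. The part of the RB1 level in the interaction was not tested and cannot be told apart from the others. The interaction was below 0 for all 10 members, against 52.0% of all genes, from -0.28 for POLA1 to -0.03 for PRIM2. The members' median was -0.15 against -0.01 over all genes. No member passed, and 0% of all genes were called. At an unadjusted p under 0.05 limma gave 2 members, POLA1 (95% interval -0.52 to -0.05) and FEN1 (-0.48 to -0.01), against 2.94% of all genes. The intervals of the other 8 members spanned 0, that of PCNA from -0.35 to 0.22.

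Where a gene had several probe sets, they were also read in a fit over all 54675. In RB against control that fit called 8 of the 14 probe sets of the members lower, against 0.662% of all probe sets. These are not the 8 genes called above: POLD1 did not pass here (limma adjusted p = 0.0794), and a second POLA2 set did. The second FEN1 probe set differed by -0.48 ± 0.15 (limma adjusted p = 0.180), close to the first in size, and its groups did not overlap. A dimmer POLA2 probe set fell by 0.41 ± 0.09 (limma adjusted p = 0.0257), while the dimmest, at 5.74 with RB and 5.78 in control, differed by -0.04 ± 0.10. The second POLD3 probe set, at 6.35 with RB and 6.40 in control, differed by -0.06 ± 0.09. In RB plus SMYD2 against SMYD2 the second FEN1 and POLA2 sets fell by 0.68 ± 0.15 and 0.37 ± 0.09 (limma adjusted p = 0.0156 and 0.0220), where 11 of the 14 and 2.12% of all probe sets were called lower, and in RB plus SMYD2 against control by 0.78 ± 0.15 and 0.36 ± 0.09 (limma adjusted p = 0.00598 and 0.0248), again with 11 of the 14 and 2.12% of all called lower. Their differences in RB plus SMYD2 against RB were -0.30 ± 0.15 for FEN1 and 0.05 ± 0.09 for POLA2, so the dimmer POLA2 set did not share the sign of the brighter one. PRIM2, called over all genes in RB plus SMYD2 against control, did not pass in the fit over all probe sets (limma adjusted p = 0.0821).

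The members moved alike across the 16 arrays. Each correlated with the mean of the other 9 at r = 0.720 (PRIM2) to 0.986 (FEN1), a value that includes the group differences they share. For deviations from the group means, which leave those differences out, r ran from -0.13 for POLD1 and -0.07 for POLA1 to 0.71 for POLD3 and 0.82 for FEN1 over the same arrays. Between single members these deviations correlated from -0.69 (PCNA and POLD1) to 0.90 (PCNA and PRIM1), so without the group differences not all members moved alike. The genes outside the members most like their mean were MELK, a cell cycle kinase (r = 0.993 over 16 arrays), AURKA, a mitotic kinase (0.991), the condensin subunit gene NCAPG (0.990), the histone methyltransferase gene NSD2 (0.988) and KIF20A, a mitotic kinesin (0.988). All values were made with RMA, although whether on all arrays at once is not stated, and no test was made of these correlations.

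Other genes of the fork were called in part. Of 23 listed, all measured, 6 were called lower in RB against control and none higher, against 1.71% of all genes called lower. The median was -0.41, and 22 differences were below 0, against 48.2% of all genes. In 14 the RB arrays all lay below the control arrays, as in 5.2% of all genes. With the replicate block 13 were called lower, against 3.47% of all genes. WDHD1, which links polymerase alpha to the helicase, fell by 0.73 ± 0.09, GINS2, a subunit of the helicase complex, by 0.64 ± 0.09, and RNASEH2A, the catalytic subunit of RNase H2, by 0.63 ± 0.11. RFC3, a clamp loader subunit, differed by -0.63 ± 0.23 and did not pass (limma adjusted p = 0.191), although it did with the block (0.0260). In RB plus SMYD2 against SMYD2, 12 of the 23 were called lower, against 4.25% of all genes, with a median of -0.56, and 22 were below 0, against 47.8%. RNASEH2A, GINS2, GINS1 and WDHD1 fell by 0.98 ± 0.11, 0.94 ± 0.09, 0.94 ± 0.17 and 0.91 ± 0.09.

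The remaining subunits of polymerases delta and epsilon, singled out after their values were seen, had smaller differences than any member in both comparisons that add RB. POLD2, POLE4 and POLE3 differed between RB and control by -0.05 ± 0.07, -0.05 ± 0.09 and -0.15 ± 0.28, and POLD4 by 0.25 ± 0.15. In RB plus SMYD2 against SMYD2 POLD2, POLE4, POLE3 and POLD4 differed by -0.06 ± 0.07, -0.21 ± 0.09, -0.01 ± 0.28 and 0.18 ± 0.15. None of them passed in either comparison. POLD2, which holds the polymerase delta complex together, had 95% intervals of -0.20 to 0.10 and -0.22 to 0.09, against -0.74 to -0.22 and -0.94 to -0.42 for POLD1. The difference between these subunits and the members was not tested.

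Polymerases that work outside bulk replication mostly did not pass. Of 14 measured, 3 fell in RB against control, against 1.71% of all genes, none rose, and the median was -0.02. The 3 were POLQ, a polymerase of end joining (-0.72 ± 0.16), POLH, a lesion-bypass polymerase (-0.49 ± 0.10), and MAD2L2, a subunit of polymerase zeta (-0.40 ± 0.08). REV1, a scaffold of lesion bypass, differed by -0.28 ± 0.14 and did not pass (limma adjusted p = 0.395), although it did with the block (0.0159). In RB plus SMYD2 against SMYD2 the same 3 fell, by 0.81 ± 0.16, 0.64 ± 0.10 and 0.43 ± 0.08, against 4.25% of all genes called lower, while POLI, another lesion-bypass polymerase, differed by 0.34 ± 0.15 and did not pass. The median of the 14 was -0.04.

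**Figure D4:**
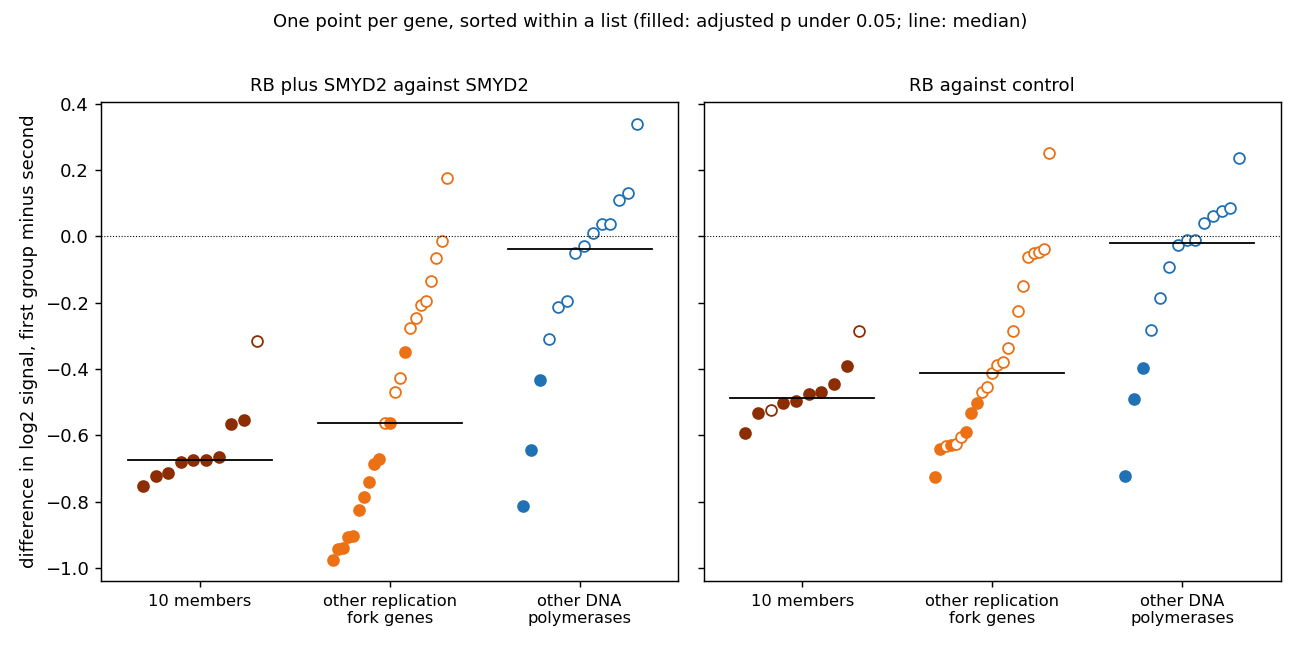
Difference in log2 signal (vertical axis) of each gene of 3 lists, sorted within a list, in RB plus SMYD2 against SMYD2 (left) and RB against control (right). Filled points were called over all genes and lines mark the list medians, which for the 10 members, the other fork genes and the other polymerases were -0.68, -0.56 and -0.04 on the left and -0.49, -0.41 and -0.02 on the right.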

How the data were processed

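Total RNA of 16 SAOS samples was hybridised to Affymetrix U133 Plus 2.0 arrays, 1 sample per array. The deposited values are log2 signals per probe set, made with RMA per the submitters' processing notes, which give no version. The sources used here do not state if RMA was run on all arrays at once. RMA keeps no detection call, so no probe set was tested for signal above background. Separately, the 4 arrays a group set the precision. Probe sets were named from the platform annotation: 41097 carried 1 gene symbol, 1801 several and 11777 none. Each of 19775 genes took the values of its brightest probe set by mean over all arrays. Differences were tested across all genes with limma 3.58.1 (R 4.3.3), which fitted a mean for each group to the 16 arrays together and let the prior variance follow the signal. Its two-sided p-values were adjusted by Benjamini-Hochberg separately in 6 comparisons, and the script was tested on simulated data. A second fit ran over all 54675 probe sets. Same-numbered arrays of the groups compared deviated together from their group means (lowest correlation 0.145), so the replicate number was also fitted as a block. RB and SMYD2, which are compared only within the interaction, had a correlation of -0.077 for number 5 and of 0.19 to 0.43 for the other numbers. Arrays of 1 group correlated at 0.981 to 0.998, and none was a copy. The members, gene lists and motifs were chosen with earlier results of these data known. All members are named; from each comparison list the rule takes the 4 genes with the largest absolute difference in RB against control and in RB plus SMYD2 against SMYD2, and it takes the 5 genes most correlated with the members' mean. POLD2, POLD4, POLE3 and POLE4 were named after their values were seen. A planned search for a PCNA-binding motif in the proteins was not run. Figures were drawn with matplotlib 3.10.9.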

Additional observations from a re-analysis of the deposited data

Results flagged for a closer look

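In 40 groups of 4 arrays (10 members by 4 groups), 1 array stood apart from its group by the gap to its nearest neighbour: POLD3 on RB array 3 read 8.29, against 8.17 to 8.19 on the other RB arrays. Chance flags about 1 in 20 such groups. The same array was also the highest of the RB arrays for FEN1 and PRIM2, and the lowest for POLA1 and POLA2.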

How the results depend on the processing

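Alternatives covered the scaling of the arrays, the mean of a gene's probe sets, the lowest 40% of genes left out, a fit on the compared groups only, array weights, eBayes without a trend, the replicate block and the omission of single arrays. Outside the last, 524 of 533 values were kept. For a member's difference this means the same direction and side of the threshold. A median of the members was kept if its sign held and it moved by less than the SD of the members' mean within groups. A count of called members was kept within a set ratio, so a count that changed could be kept. In RB against control POLE2 passed with the replicate block (-0.52, adjusted p = 0.00732) and with array weights (-0.54), PRIM2 passed with array weights (-0.37), and POLD1 missed the threshold in the fit on the compared groups (-0.48, adjusted p = 0.0636). PRIM2 also passed with array weights in RB plus SMYD2 against SMYD2 (-0.43). The block changed no other call of a member. Directions turned only in SMYD2 against control, where no gene was called: POLA1 and POLD1 were at -0.00147 and -0.000435 with each array centred on its median, and POLE2 and FEN1 at 0.0826 and 0.0280 with array weights. With each array left out in turn, 1209 of 1248 values were kept. Members called lower in RB against control numbered 6 (without RB array 4) to 9, against 8 in the main fit, and all these counts were among those kept. In SMYD2 against control POLA1 ranged from -0.00905 to 0.0299, POLD1 from -0.0325 to 0.0778, POLE2 from -0.19 to 0.10 and FEN1 from -0.0571 to 0.0262, and in the interaction PRIM2 ranged from -0.13 to 0.0851. The cause of these changes was not tested.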
